A study of Mus musculus with 5 samples.

Results

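The glutathione S-transferase (Gst), UDP-glucuronosyltransferase (Ugt) and sulfotransferase (Sult) genes were followed across the cell types and libraries of a mouse single-cell RNA-seq series. They were all genes of the count tables whose symbols open with Gst and one of the class letters a, m, p, t, z, o or k, or with Ugt or Sult, and go on with a digit. The rule found 62 genes (22 Gst, 20 Ugt and 20 Sult) among 25872, of which 59 were in the table of the ApoE livers, 60 in that of the other liver and 42 in that of the aortas.

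Phase II enzymes attach a polar group to a drug, hormone, bile acid or product of oxidation. Gst enzymes use glutathione, Ugt enzymes use glucuronic acid carried by UDP, and Sult enzymes use sulfate carried by PAPS. The conjugates are then exported into bile or blood, and the hepatocyte is the cell best known for this work. Many of these genes are known to differ along the liver lobule and between male and female mice.

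The series, whose title names epsins of the liver in atherosclerosis, holds 5 droplet libraries in which each RNA molecule is counted once by its unique molecular identifier (UMI). The labels give 3 liver libraries, titled DKO with ApoE, WT with ApoE, and WT with no ApoE in its title, and 2 aorta libraries, titled DKO and WT, both with ApoE. The protocol speaks of WT and Liver-DKO mice and of 3 animals, without saying whether they were pooled, and it describes cell isolation for liver only. The labels used here give no age, sex, diet, allele, promoter or Cre line, and "ApoE" is used below only as the titles use it.

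With 1 library in each group there was no spread between replicates to test against, and no p-value is given. Levels are UMIs summed over the cells of a class, per 1000000 UMIs of that class (CPM). A ratio is CPM over CPM with its exact 95% interval, which covers counting error only. A member was counted as past the fold when its ratio was at least 1.5, or its inverse, with at least 100 UMIs in the pair of libraries. UMIs were counted near the 3′ end, so CPM is compared for 1 gene between cells, and the order of genes within a family is an order of UMIs.

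The libraries held 616 to 4331 cells and 1883798 to 10999072 UMIs, and the 2 libraries of either ApoE tissue shared 4 cell barcodes. The members took 0.594% of the UMIs of the liver labelled DKO, 0.814% of the liver labelled WT with ApoE and 0.931% of the other WT liver, against 0.0508% and 0.0538% in the aortas labelled DKO and WT. The hepatocyte class held 3253, 4021 and 261 cells of these 3 livers. Epn1, an epsin gene, stood at 71.2 CPM in hepatocytes labelled DKO and at 58.9 CPM in those labelled WT (ratio 1.21, interval 1.07 to 1.36), and Epn2 at 8.70 and 7.62 CPM, so neither was lower in the library labelled DKO. Apoe stood at 32.6 and 36.2 CPM in the ApoE livers labelled DKO and WT and at 68.8 CPM in the liver with no ApoE in its title. The genome is mm10 (GRCm38), and positions are from its GENCODE M21 annotation.

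Many members lie beside copies of themselves. The 7 Gstm genes are on chromosome 3, 9 Ugt1a genes share their last exons on chromosome 1, 8 Ugt2 genes are on chromosome 5 and the 8 Sult2a genes on chromosome 7, between 13623967 and 14494230. Near copies can divide or lose reads in the authors' counting: 91.6% of the 31-base words in the last 400 transcript bases of Gstp1 are also in Gstp2, 53.2% of those of Sult2a2 are in Sult2a5, and 34.3% of those of Gsta1 are in Gsta2. Values of single Ugt1a genes, of the pair Gstp1 and Gstp2, and of Sult2a1, Sult2a2, Sult2a5 and Sult2a6 are uncertain for that reason and are also given as sums.

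Promoter sequences are shown for the pairs of neighbours Sult3a1 and Sult3a2, and Gstm2 and Gstm3. They were chosen because these 4 genes stood higher in hepatocyte cluster 5 than in cluster 7 in both ApoE libraries. The ratios, of 3.94 to 25.8, are described below. They rest on few UMIs for Sult3a2 in both libraries, and for Gstm2 and Gstm3 in the library labelled WT. Each printed sequence runs 5′ to 3′ on the gene's own strand, from RefSeq's GRCm38.p6 promoter windows. It stops at the base before the first exon that GENCODE annotates, which can lie ahead of RefSeq's start. Capitals mark CTTTGA on either strand, the core bound by the TCF/LEF factors of Wnt signalling.
Sult3a1, chr10:33857472-33857720, plus strand: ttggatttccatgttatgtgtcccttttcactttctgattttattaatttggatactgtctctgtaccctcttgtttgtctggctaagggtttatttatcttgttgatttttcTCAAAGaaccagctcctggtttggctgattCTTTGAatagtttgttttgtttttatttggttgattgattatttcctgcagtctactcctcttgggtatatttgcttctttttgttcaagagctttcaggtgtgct
Sult3a2, chr10:33782126-33782365, minus strand: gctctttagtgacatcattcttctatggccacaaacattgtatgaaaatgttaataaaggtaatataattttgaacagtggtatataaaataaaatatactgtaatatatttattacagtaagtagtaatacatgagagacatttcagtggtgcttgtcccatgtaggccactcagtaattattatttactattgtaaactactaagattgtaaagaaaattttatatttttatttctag
Gstm2, chr3:107986454-107986670, minus strand: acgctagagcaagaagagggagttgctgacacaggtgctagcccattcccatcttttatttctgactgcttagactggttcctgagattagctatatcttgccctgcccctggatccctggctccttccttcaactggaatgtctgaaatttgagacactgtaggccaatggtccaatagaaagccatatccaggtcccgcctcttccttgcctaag
Gstm3, chr3:107969284-107969424, minus strand: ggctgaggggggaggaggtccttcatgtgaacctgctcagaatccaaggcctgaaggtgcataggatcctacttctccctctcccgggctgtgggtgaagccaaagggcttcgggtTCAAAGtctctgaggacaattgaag
CTTTGA began 137 and 107 bases before RefSeq's start of Sult3a1, whose printed stretch ends 1 base before that start. In Gstm3 it began 25 bases before the end of the printed stretch, which lies 109 bases ahead of RefSeq's start. The windows of Sult3a2 and Gstm2 held no match. The printed stretch of Sult3a2 lies inside the gene as GENCODE annotates it, at chr10:33766424-33786704 on the minus strand. It is thus ahead of RefSeq's start but not of GENCODE's, and the sequence before GENCODE's start was not searched. The 54 members with a window have 65 windows, of which 13 held it, and so did 13.83% of all 32851 windows. TTCNNNGAA, the site of STAT5, was found in 4 of the 65 windows and in 7.02% of all, and the copy in Sult3a1, from 109 bases before RefSeq's start, overlaps the CTTTGA at 107. TGACNNNGC, the core of the antioxidant response element, was found in 3 of the 65 (Gsta3, Gstm5 and Gstm7) and in 10.16% of all. CAAAGTCCA, the core of HNF4, was found in none of the members' windows and in 0.38% of all. A match is a match of letters only, and its absence says nothing of the factor.

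Hepatocytes held the 3 families in amounts that differed between livers. Gst genes summed to 3206 CPM in hepatocytes labelled DKO, 4102 CPM in those labelled WT with ApoE and 6502 CPM in those of the other WT liver. Ugt genes summed to 1526, 1945 and 1397 CPM, and Sult genes to 1851, 2361 and 1379 CPM, in the same order. The Gst sum was thus highest in the liver with no ApoE in its title, where the Ugt and Sult sums were lowest.

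A few genes made up most of each family. Gsta3, an alpha-class transferase, and Gstm1, a mu-class transferase, held 33.9% and 27.9% of the Gst UMIs in hepatocytes labelled DKO, and 36.1% and 28.7% in those labelled WT with ApoE. In the liver without ApoE in its title Gstm1 led with 38.4% and Gsta3 followed with 26.5%. Gstz1, the zeta-class enzyme of tyrosine breakdown, and Gstt1, of the theta class, came next in all 3 livers. Ugt2b36 was first among Ugt genes in each liver, with 23.4%, 27.2% and 34.9% of their UMIs. The leading Sult genes were Sult1a1, the phenol sulfotransferase, and Sult1d1, which acts on catecholamines, in all 3 livers. Sult2a8, a sulfotransferase of bile acids, and Sult3a1, which acts on amines, came next in both ApoE livers, with 18.1% and 14.3% of the Sult UMIs in the library labelled DKO and 17.9% and 12.3% in that labelled WT. In the other WT liver those places were held by Sult2a1 and Sult2a5, which belong to the hydroxysteroid class.

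**Figure D1:**
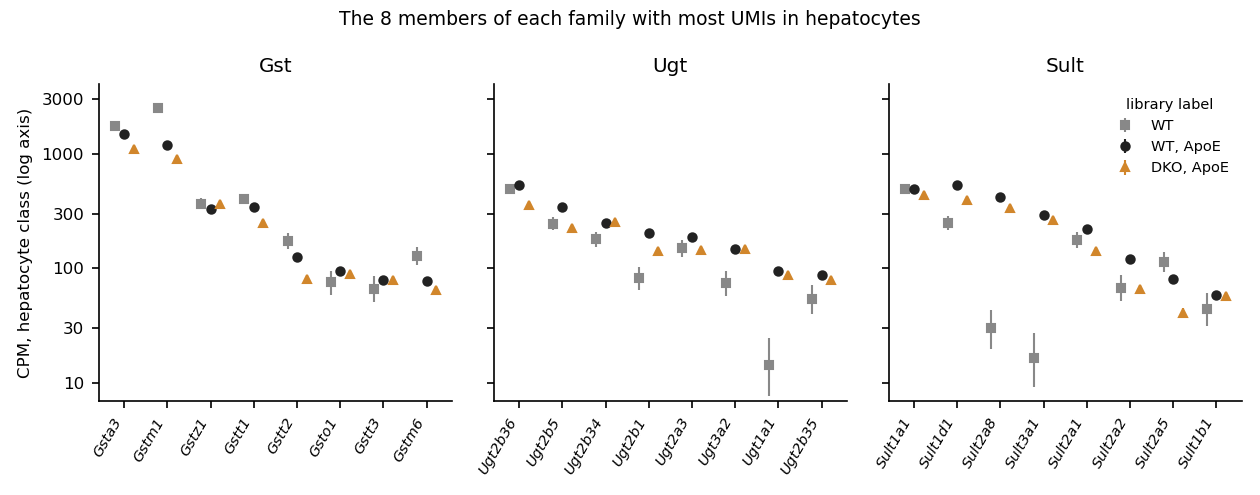
CPM (log axis) of the 8 members of each family with most UMIs in the hepatocyte class of each liver library, with exact 95% Poisson intervals. Gsta3 and Gstm1 stand above the other Gst genes in all 3 libraries, and Sult3a1 and Sult2a8 stand far lower in the liver with no ApoE in its title.

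The first comparison set hepatocytes of the ApoE liver labelled DKO beside those of the ApoE liver labelled WT. Most members were somewhat lower in the library labelled DKO: 36 of the 44 members with enough UMIs were below a ratio of 1 and 8 above, with a median log2 ratio of -0.19 where that of all genes was 0.00. With mitochondrial genes and Gm42418, AY036118, Cmss1, Cdk8, Lars2 and Camk1d left out of the total, 31 were below 1 and 13 above, and 6 in place of 9 were lower past the fold: Gstt2 (0.686), Ugt2b5 (0.693) and Sult2a1 (0.691) were no longer counted. The family sums lay close together, with ratios of 0.782 (0.770 to 0.794) for Gst, 0.785 (0.767 to 0.803) for Ugt and 0.784 (0.769 to 0.8004) for Sult. Past the fold, 9 members were lower, where 2.71% of all genes were, and 1 was higher, where 2.24% were. The other 15 of the 59 members in that table had too few UMIs to be counted.

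Cells of the 2 libraries fell into the clusters in different shares, and the counts were not the same in every set of clusters. Clusters 5, 7 and 8, whose cells had the most UMIs in the library labelled WT, held 1195 of the 3253 hepatocytes labelled DKO and 790 of the 4021 labelled WT. Class levels are sums of UMIs, and these clusters held a larger share of UMIs than of cells. In that order they held 1728479, 2397769 and 1852305 of the 9199909 UMIs labelled DKO. They held 1309250, 1118737 and 1303203 of the 8789001 UMIs labelled WT. Within these 3 clusters only 1 member, Gstp1, was lower past the fold (ratio 0.510) and 2 were higher, Ugt1a1 (1.86) and Ugt1a5 (1.65). There the Gst sum had a ratio of 0.786, the Ugt sum 0.955 and the Sult sum 0.922. Several abundant liver transcripts were also lower in the library labelled DKO over the whole class, among them Ttr (0.651), Apoa2 (0.724) and Alb (0.852), while Fga (1.19) and Apob (1.13) were higher. Summed erythroid markers stood at 120.0 CPM in the hepatocyte class labelled DKO and 14.1 CPM in that labelled WT, pancreatic acinar markers at 20.4 and 108 CPM, B cell markers at 12.8 and 41.9 CPM and macrophage markers at 2.61 and 8.65 CPM; their part in the members' ratios was not tested.

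**Figure D2:**
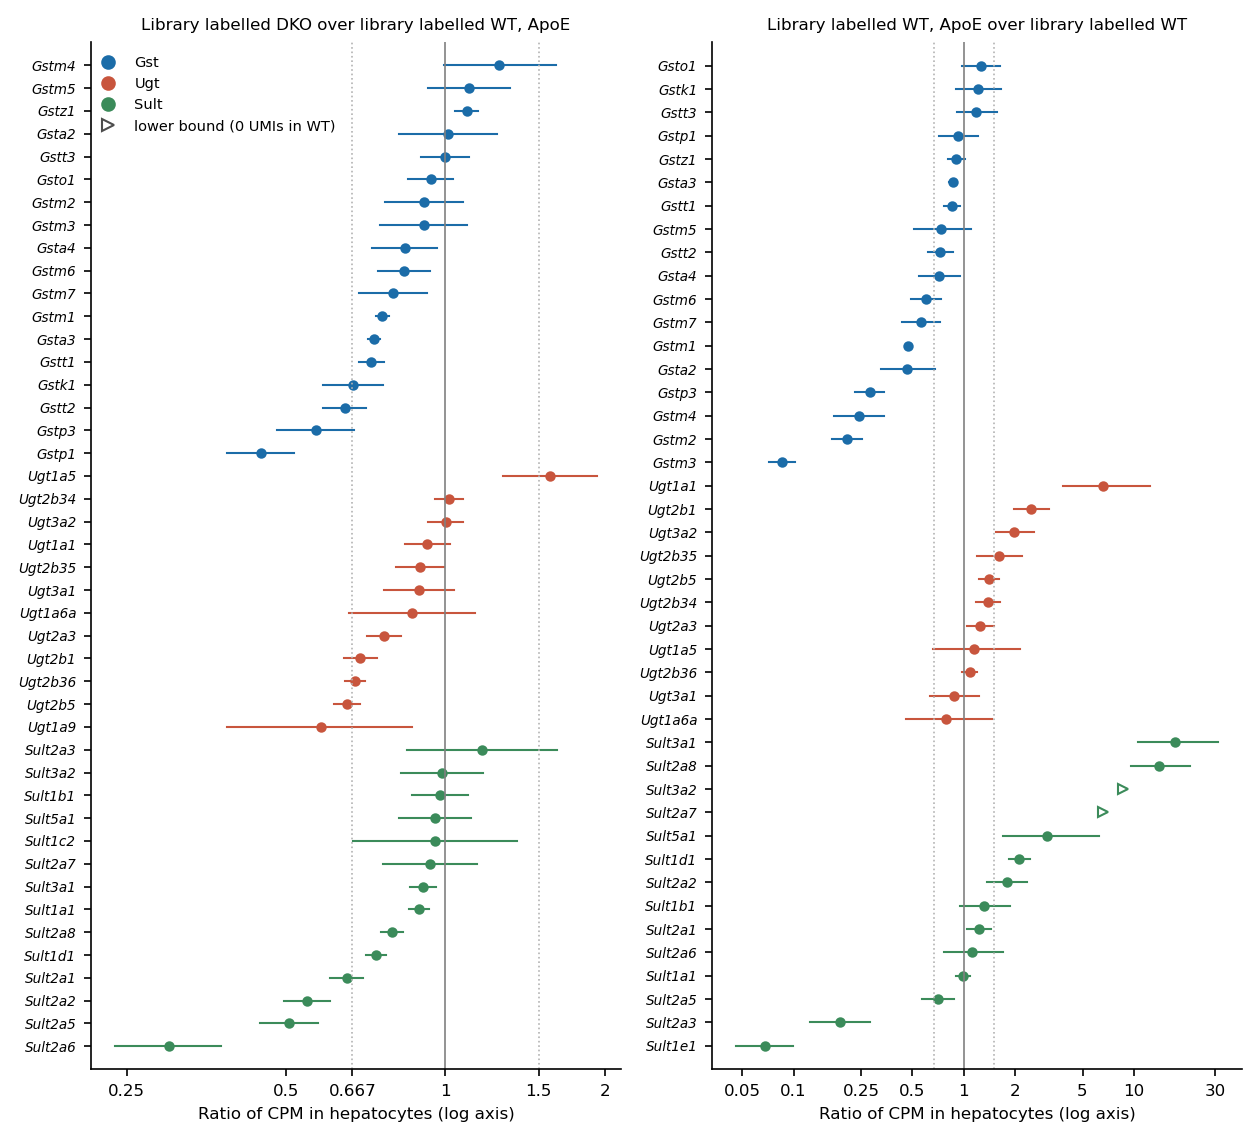
Ratio of CPM (log axis) in hepatocytes for each member with at least 100 UMIs, with exact 95% intervals, for the library labelled DKO over that labelled WT and for WT with over WT without ApoE in the title. Dotted lines mark a ratio of 1.5 and its inverse; open triangles are lower bounds for genes with 0 UMIs in the liver without ApoE. The first comparison lies mostly between the lines and the second spreads far outside.

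Among Gst genes, 3 of 18 were lower past the fold and none was higher. Gstp1, the pi-class transferase that conjugates electrophiles, stood at 29.8 CPM in hepatocytes labelled DKO and 66.6 CPM in those labelled WT, a ratio of 0.447 (0.386 to 0.517). With Gstp2, its near copy, the sum was 276 and 591 UMIs and the ratio 0.446 (0.385 to 0.516). Gstp3, their neighbour on chromosome 19, stood at 25.1 and 44.1 CPM (0.569). Gstt2 stood at 81.4 and 126 CPM (0.646). The most abundant Gst genes lay inside the fold: Gsta3 at 1087 and 1482 CPM (0.734), Gstm1 at 895 and 1177 CPM (0.760) and Gstt1 with 2300 and 3031 UMIs (0.725). Gstz1 lay on the other side of 1, at 363 and 331 CPM (1.10, 1.04 to 1.15). Gstk1, the kappa-class enzyme of mitochondria and peroxisomes, was just short of the fold at 0.669.

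Among Ugt genes, 2 of 12 were lower past the fold and 1 was higher. Ugt2b5, which acts on steroids, stood at 225 CPM in hepatocytes labelled DKO and 345 CPM in those labelled WT, a ratio of 0.652 (0.616 to 0.690). Ugt1a9, counted in 42 and 69 UMIs (4.57 and 7.85 CPM), had a ratio of 0.582 (0.387 to 0.866). Ugt1a5 was the member on the higher side, at 28.2 and 17.9 CPM (1.58, 1.29 to 1.93). Since the Ugt1a genes share their 3′ exons, their sum is the firmer value, and it stood at 141 and 148 CPM with a ratio of 0.954 (0.883 to 1.03). Ugt1a1, the enzyme that conjugates bilirubin, stood at 88.2 and 95.3 CPM. The Ugt2b genes together had a ratio of 0.744 (0.725 to 0.764), with Ugt2b36 at 357 and 529 CPM (0.674) and Ugt2b1 at 141 and 204 CPM (0.691) just short of the fold. Ugt2b34 had a ratio of 1.02, and Ugt3a2 stood at 148 CPM in both.

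Among Sult genes, 4 of 14 were lower past the fold, and all 4 are hydroxysteroid sulfotransferases of chromosome 7. Sult2a6 stood at 10.9 CPM in hepatocytes labelled DKO and 36.2 CPM in those labelled WT, a ratio of 0.3004 (0.238 to 0.377). Sult2a5 stood at 40.9 and 80.7 CPM (0.507), Sult2a2 at 66.3 and 121 CPM (0.547) and Sult2a1 at 142 and 219 CPM (0.651). Their sum had a ratio of 0.570. The other Sult genes lay closer to 1, with Sult1a1 at 437 and 490 CPM (0.891), Sult1d1 at 392 and 529 CPM (0.740), Sult2a8 at 335 and 422 CPM (0.793) and Sult3a1 at 264 and 291 CPM (0.907). Within clusters 5, 7 and 8, Sult2a6 had a ratio of 0.384 on fewer than 100 UMIs, and Sult2a1, Sult2a2 and Sult2a5 did not pass the fold.

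Inside single clusters, some members kept 1 direction and others did not. Over the clusters with at least 20 UMIs of a gene, Gstp1 was lower in the library labelled DKO in 9 of 9, with ratios from 0.408 to 0.671 and 7 intervals below 1. Gstm1 was lower in 11 of 11, Gstt1 in 10 of 10, Gstt2 and Ugt2a3 in 9 of 9 and Sult2a6 in 8 of 8. Ugt1a5 was higher in 8 of 8, from 1.01 to 2.27, with 2 intervals above 1. Sult3a1 was higher in 5 clusters and lower in 5, from 0.531 in cluster 4 to 2.47 in cluster 7. Ugt1a1 was higher in 4 and lower in 5, from 0.554 in cluster 3 to 2.38 in cluster 5. The clusters were made by the authors from the same counts, so these are descriptions.

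**Figure D3:**
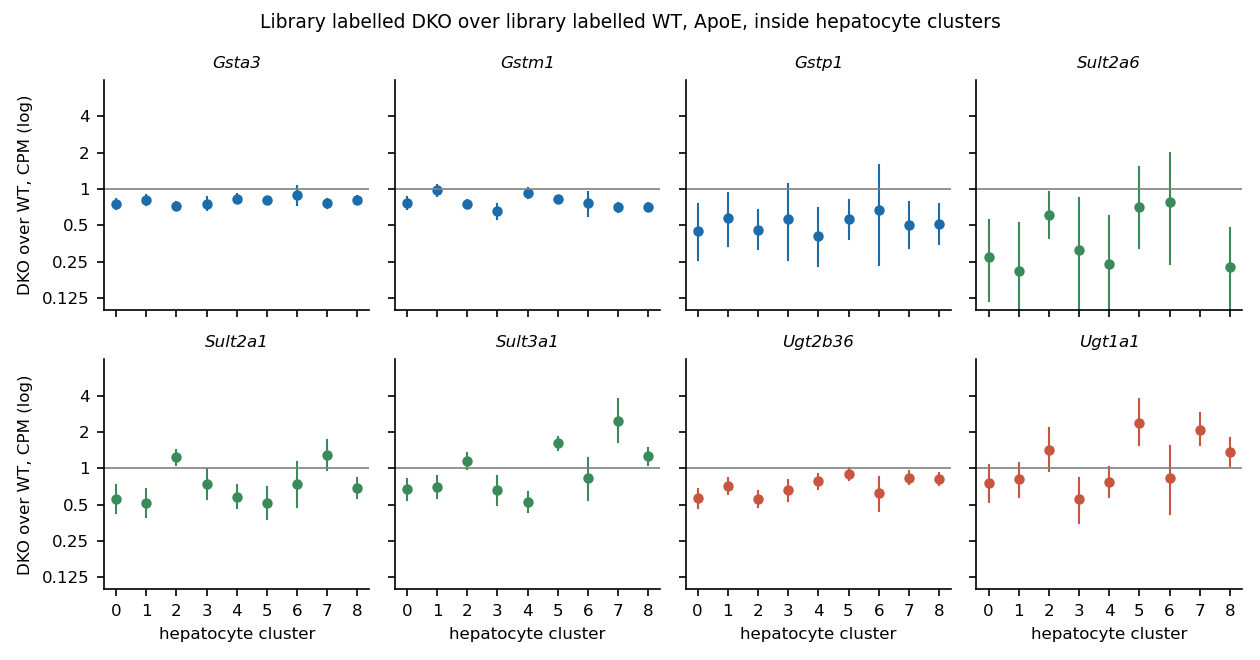
Ratio of CPM (log axis), library labelled DKO over library labelled WT, of 8 members inside hepatocyte clusters 0 to 8 with at least 20 UMIs of the gene, with exact 95% intervals drawn down to a ratio of 0.1. Gstp1 and Sult2a6 stay below 1 in every cluster drawn, and Sult3a1 and Ugt1a1 lie on both sides.

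Lists of related genes were set beside the members in the same comparison. Of 18 other conjugating enzymes with enough UMIs, 1 was lower past the fold, Nat8f1 (0.623), of the Nat8 family of acetyltransferases, and none was higher (median log2 -0.12). Mgst1, a membrane-bound glutathione transferase, stood at 1763 and 2561 CPM (0.689). Of 19 genes that supply the cosubstrates, 1 was higher, Slc26a1 (1.56), a sulfate transporter, and none was lower (median 0.12). Mat1a, which makes S-adenosylmethionine, stood at 2852 and 2233 CPM (1.28). Of 22 sensors of foreign compounds and oxidants, 1 was higher, Nfe2l1 (1.79), a relative of Nrf2, and none was lower (median 0.07).

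Of 16 target genes of Nrf2 outside the 3 families, 1 was lower, Prdx1 (0.538), a peroxidase, and none was higher (median 0.03). Of 14 genes of conjugate export and hydrolysis, 1 was higher, Abcb1a (1.77), an efflux pump, and none was lower (median -0.05). Of 21 phase I oxidation genes, 2 cytochrome P450 genes were lower, Cyp2c37 (0.603) and Cyp2d9 (0.555), and none was higher (median -0.20). Of 6 male-biased hepatic genes, 1 was lower past the fold, Cyp2d9 again, and none was higher, and all 6 were below 1 (median -0.39). Of 10 female-biased hepatic genes none was past the fold, with 5 above 1 and 5 below (median -0.02). The median of the phase I list was therefore close to that of the members, and that of the male-biased list lay further below 0. The medians of the supply and sensor lists lay on the other side of 0.

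The second comparison set hepatocytes of the WT liver with ApoE in its title beside those of the WT liver without it, from tables the authors deposited separately. The families went different ways. Of 18 Gst genes with enough UMIs, 8 were lower past the fold in the liver with ApoE and none was higher, while 4 of 11 Ugt genes were higher and none lower, and 7 of 14 Sult genes were higher and 2 lower. In all, 11 of 43 members were higher, where 14.8% of all genes were, and 10 were lower, where 16.8% were. The sums had ratios of 0.631 (0.614 to 0.649) for Gst, 1.39 (1.32 to 1.48) for Ugt and 1.71 (1.62 to 1.82) for Sult. Median log2 ratios were -0.47 for Gst, 0.47 for Ugt and 0.35 for Sult (0.62 with genes at 0 UMIs set to their bound), against -0.02 over all genes. The title, the table, the preparation and whatever else differs between these libraries cannot be told apart.

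The lower Gst genes were mostly of the mu class. Gstm3 stood at 26.5 CPM in hepatocytes of the liver with ApoE and 311 CPM in those of the liver without it, a ratio of 0.0853 (0.0714 to 0.102). Gstm2 stood at 32.7 and 159 CPM (0.206), Gstm4 at 13.7 and 56.6 CPM (0.241) and Gstm1 at 1177 and 2496 CPM (0.471). The 7 Gstm genes together stood at 1399 and 3268 CPM, a ratio of 0.428 (0.411 to 0.446). Gstp3 stood at 44.1 and 158 CPM (0.280), while Gstp1 was near equal at 66.6 and 72.2 CPM (0.922, 0.713 to 1.21). Gsta2 had a ratio of 0.464, Gstm7 0.562 and Gstm6 0.600. Gsta3 stood at 1482 and 1722 CPM (0.861), and Gsta1 was counted in 6 UMIs against 32 and was left uncounted.

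Of the Ugt genes, Ugt1a1 stood furthest apart, at 95.3 CPM with ApoE and 14.4 CPM without it, a ratio of 6.61 (3.84 to 12.5). The 9 Ugt1a genes together stood at 148 and 57.7 CPM (2.57, 1.95 to 3.46). Ugt2b1 was higher at 204 and 82.2 CPM (2.48), Ugt3a2, which uses other sugars than glucuronic acid, at 148 and 74.4 CPM (1.99), and Ugt2b35 at 87.6 and 54.4 CPM (1.61). Ugt2b36, the leading Ugt gene, stood at 529 and 487 CPM (1.09, 0.984 to 1.20).

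The Sult genes held the steepest differences in both directions. Sult3a1 stood at 291 CPM with ApoE and 16.7 CPM without it, a ratio of 17.5 (10.6 to 31.3). Its neighbour Sult3a2 was counted in 253 UMIs against 0, at least 8.64-fold higher when set against a floor of 3 UMIs in the library. Sult2a8 stood at 422 and 29.98 CPM (14.1, 9.67 to 21.4), and Sult2a7, its neighbour on chromosome 7, was counted in 194 UMIs against 0, at least 6.63-fold higher. Also higher were Sult5a1 (3.08), Sult1d1 at 529 and 249 CPM (2.13) and Sult2a2 (1.79). In the other direction, Sult1e1, the oestrogen sulfotransferase, stood at 5.35 and 78.8 CPM (0.0678, 0.0459 to 0.0994), and Sult2a3 at 8.08 and 43.3 CPM (0.187). Sult1a1 was level at 490 and 494 CPM (0.992).

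Genes beside the members also stood far apart between these WT livers. Mup20, a major urinary protein gene known for male-biased expression, stood at 107 CPM with ApoE and 3603 CPM without it. Of 9 female-biased hepatic genes 4 were higher and 1 lower, with Cyp3a44 at 288 and 19.99 CPM. Of 4 male-biased genes 3 were higher and 1, Mup20, was lower, with Slco1a1, an organic anion transporter, at 85.1 and 0 CPM. Xist, a transcript of the inactive X chromosome, stood at 644 and 563 CPM, and so was counted in both. Summed cholangiocyte markers stood at 4.21 and 239 CPM and macrophage markers at 8.65 and 234 CPM in the hepatocyte classes; their part in the members' ratios was not tested.

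Against all 616 cells of the liver without ApoE, every one of which the authors call a hepatocyte, 11 members were higher (18.8% of all genes) and 14 lower (17.8%). In the clusters with the highest Glul, the glutamine synthetase of hepatocytes around the central vein, Gstm3 stood at 60.3 CPM in cluster 5 of the ApoE liver and 910.2 CPM in cluster 12 of the other. Gstm2 stood at 71.8 and 714 CPM there, Sult3a1 at 303 and 58.7 CPM and Sult2a8 at 461 and 78.3 CPM. These 4 members lay on the same side of 1 in these clusters, which held 303 and 29 cells, as over the whole class. The 2 clusters were not alike in zonation genes: Glul stood at 1996 and 5305 CPM and Cyp2e1 at 4015 and 1772 CPM. Of all genes, 32.1% were higher and 18.3% lower past the fold between them. The part of zonation in the members' ratios was not tested. Sult2a2 alone of the members past the fold over the class changed side. It stood at 31.3 and 127 CPM there (0.246, 0.129 to 0.501), on 41 and 13 UMIs.

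Lists of related genes differed as well. Of 16 Nrf2 target genes, 9 were lower in the liver with ApoE and 2 higher (median log2 -0.64), with Osgin1 (0.268) and Ephx1 (0.362), the microsomal epoxide hydrolase, among the lower and Ces2a (4.05), a carboxylesterase, among the higher. Of 19 sensors, 7 were higher and 3 lower (median 0.41), and the lower ones were Nfe2l2 (0.346), which encodes Nrf2, Cebpa (0.433) and Mafg (0.518), a partner of Nrf2 on DNA. Of 18 other conjugating enzymes, 1 was higher, Nnmt (2.51), which methylates nicotinamide, and 7 were lower (median -0.32), with Bhmt (0.375), Mgst3 (0.405) and Gamt (0.547) furthest from 1 by the near end of their intervals.

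Of 17 cosubstrate genes, 3 were higher and 3 lower (median -0.15), with Ahcy (6.48) on 1 side and Ggct (0.381) and Ugdh (0.535), which makes UDP-glucuronic acid, on the other. Of 13 export and hydrolysis genes, 6 were higher and 1 lower (median 0.49), among them Slco1a4 (2.68). Of 20 phase I genes, 9 were higher and 2 lower (median 0.46), with Cyp2c54 at 236 and 3.33 CPM (70.8, 24.2 to 344), Cyp2c37 (10.0), Cyp2c50 (7.37) and Cyp2e1 (5.71) furthest from 1. The higher P450 genes and the lower Gst genes were thus found in the same comparison.

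Members also differed between hepatocyte clusters within a library. Cluster 5 of the ApoE table had the highest Glul, at 2425 CPM in the library labelled DKO and 1996 CPM in that labelled WT, and cluster 7 had the highest Cyp2f2, a P450 known from hepatocytes around the portal vein, at 840 and 870 CPM. Because the clusters were formed from these counts, the ratios below describe them and test nothing. In the library labelled WT, 9 of 26 members with enough UMIs were higher in cluster 5 past the fold (9.40% of all genes) and 1 was lower (7.48%). In the library labelled DKO, 13 of 32 were higher (12.5%) and 5 lower (8.80%). In the liver without ApoE, 4 of 7 were higher in cluster 12 than in cluster 4 (18.2%) and none was lower (15.6%).

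On the side of cluster 5 stood Gstm2, at 71.8 CPM against 4.47 CPM in cluster 7 in the library labelled WT and at 75.2 against 2.92 CPM in that labelled DKO, ratios of 16.1 (6.65 to 50.6) and 25.8 (12.2 to 65.3). Gstm3 had ratios of 13.5 and 20.5, and Gstm6 of 3.58 and 4.81. In the library labelled WT, the ratio of Gstm2 rested on 94 and 5 UMIs and that of Gstm3 on 79 and 5. Both were too few to be counted as past the fold. Sult3a1 stood at 303 against 26.8 CPM and at 489 against 66.3 CPM, ratios of 11.3 (7.80 to 17.0) and 7.38 (6.22 to 8.80). Sult3a2 had ratios of 21.8 on 51 and 2 UMIs and of 3.94 on 71 and 25. Sult2a7 had ratios of 2.94 on 31 and 9 UMIs and of 8.18 on 59 and 10. Sult3a2 and Sult2a7 thus had too few UMIs to be counted in either library. The genes named on this side are those whose RefSeq promoter windows are printed above, with Gstm6 and Sult2a7 added.

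The abundant members had shallower slopes in the same direction. Gstm1 had ratios of 2.29 and 2.69 in the libraries labelled WT and DKO and 2.58 between clusters 12 and 4 of the liver without ApoE. Gsta3 had ratios of 1.92, 2.06 and 2.31 in the same order. Sult2a8 had ratios of 1.63 and 2.17. In the liver without ApoE, Gstm3 had 3.85 and Gstt1 1.66.

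On the side of cluster 7 stood Sult5a1, at 10.7 CPM in cluster 5 against 77.8 CPM in cluster 7 in the library labelled WT and at 10.99 against 63.8 CPM in that labelled DKO, ratios of 0.138 (0.0722 to 0.243) and 0.172 (0.101 to 0.278). Ugt1a1 had ratios of 0.459 and 0.519, Ugt1a5 of 0.498 and 0.662, Gsta2 of 0.665 and 0.523, and Gstt2 of 0.724 and 0.617. Ugt1a1, Ugt1a5 and Gsta2 rested on fewer than 100 UMIs in the library labelled WT, as did Gsta2 in that labelled DKO. Ugt2a3 completed the 6 lowest in the library labelled WT at 0.733. Ugt1a9, at 1 and 21 UMIs (0.0661, 0.00160 to 0.411), and Sult2a1 were among the 6 lowest in the library labelled DKO.

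Sult2a1, Gsto1, Gstk1 and Ugt1a6a lay on different sides of 1 in these libraries, and of them Sult2a1 alone was past the fold in 1 library. It stood at 80.2 CPM in cluster 5 and 59.0 CPM in cluster 7 of the library labelled WT, a ratio of 1.36 (0.990 to 1.88), and at 41.7 and 75.9 CPM in that labelled DKO, a ratio of 0.549 (0.412 to 0.725). Neither cluster held the highest level of that gene: in the library labelled WT it ran from 59.0 CPM in cluster 7 to 569 CPM in cluster 16, and in the library labelled DKO from 41.7 CPM in cluster 5 to 502 CPM in cluster 2. Cluster 16 held 6 and 40 cells in the libraries labelled WT and DKO.

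**Figure D4:**
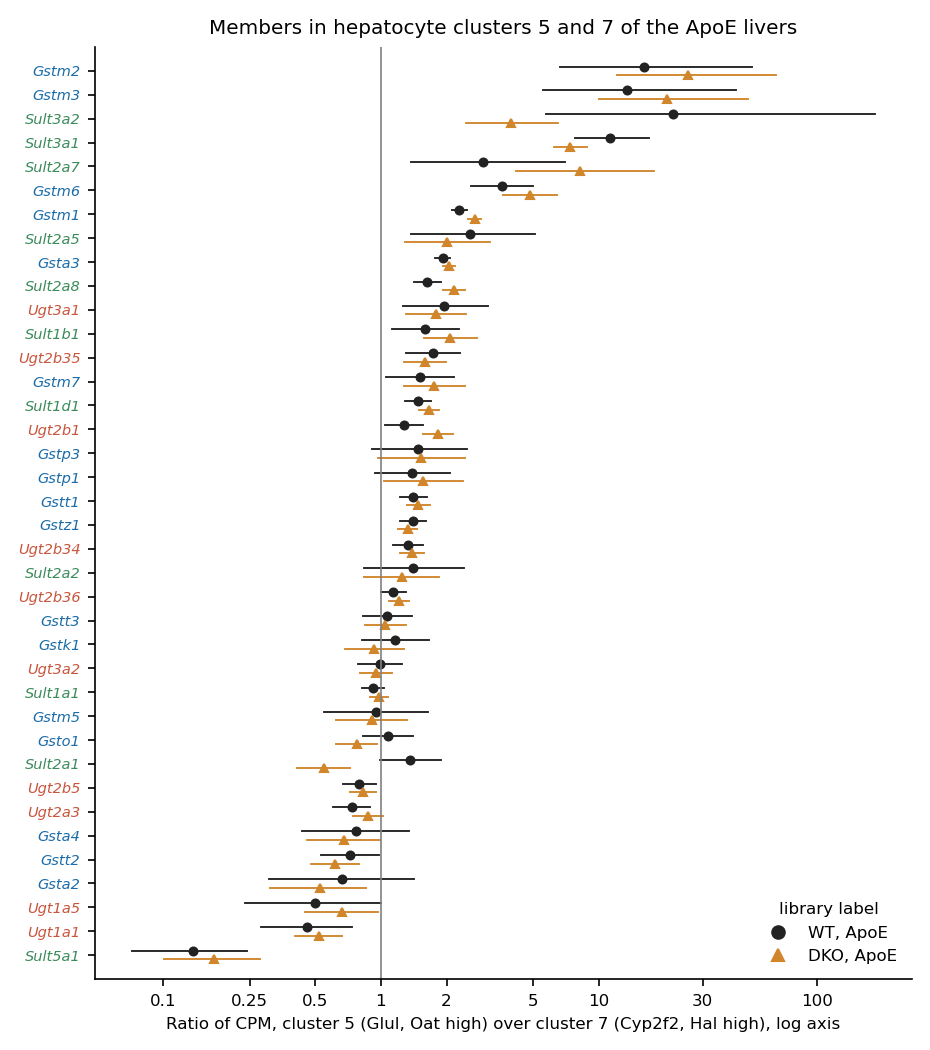
Ratio of CPM in hepatocyte cluster 5 over cluster 7 (log axis), with exact 95% intervals, of the members in the ApoE livers labelled WT and DKO. Gstm2, Gstm3, Sult3a1 and Sult3a2 lie on the side of cluster 5 and Sult5a1 and Ugt1a1 on that of cluster 7 in both libraries.

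In the other cell types that the authors named in the ApoE livers, members were counted together with other hepatocyte RNA. Markers of each named type were present: Cd3e stood at 247 and 235 CPM in T cells of the libraries labelled WT and DKO, Cd79a at 669 and 860 CPM in B cells, Stab2 at 976 and 1464 CPM in endothelial cells, and S100a8 at 21921 and 17442 CPM in neutrophils. In Kupffer cells Clec4f stood at 325 and 105 CPM. Alb, a hepatocyte gene, was found in all of them, from 12130 CPM in T cells labelled DKO to 35226 CPM in Kupffer cells labelled WT.

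Gsta3 and Gstm1 led the members by UMIs in T cells, B cells, Kupffer cells and endothelial cells of both libraries. In T cells labelled WT Gsta3 stood at 753 CPM, 50.8% of its level in hepatocytes (43.5 to 59.0), and in T cells labelled DKO at 389 CPM, 35.8% (31.7 to 40.3). Hepatocyte markers in the same cells stood at medians of 52.0% and 24.8% of their hepatocyte level. In B cells labelled WT Gsta3 stood at 550.0 CPM, 37.1% of its hepatocyte level, beside a marker median of 37.3%. In endothelial cells labelled DKO it stood at 715 CPM, 65.8%, beside a median of 56.0%. Of 240 values of a member in a cell type and library with at least 5 UMIs, 225 had intervals that met the range of the hepatocyte markers, 15 lay above it and none lay below. The minimum of 5 UMIs left out members that were low in a cell type, so a value below the range could seldom arise. In neutrophils labelled WT it could not, since the lowest marker stood at 0%. Many intervals were wide, so meeting the range does not show that a member followed the markers.

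Gstp1 lay above that range in T cells of both libraries, at 82.2 CPM in the library labelled WT, 124% of its hepatocyte level (73.8 to 195), and at 21.8 CPM in that labelled DKO, 73.4% (41.3 to 121). It was also above the range in neutrophils labelled WT, with 6 UMIs. Sult2b1, the cholesterol sulfotransferase, was counted in 5 UMIs in T cells labelled DKO and in none in hepatocytes of either ApoE liver. The other 11 values were all from the library labelled DKO and were of Gsta2, Gstp3, Gstt2, Sult2a1, Sult2a5 and Sult2a6.

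The aortas held few of these transcripts and a different set of them. Ugt genes were counted in 22 UMIs in the library labelled DKO and 14 in that labelled WT, and Sult genes in 223 and 207, against 2918 and 3210 for Gst. Of the Ugt UMIs, 6 and 11 were of Ugt8a, which makes the galactolipid of myelin, and 5 in each library were in the Schwann cell subtype SC1, where Ugt8a stood at 110.5 CPM (53.0 to 203) over both. Gsta3, Ugt2b36 and Sult1d1, leaders in liver, were not among the aorta's leading members, and summed hepatocyte markers stood at 87.4 CPM or less in every aorta subtype.

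The subtypes carry the authors' names, and some names go against the markers. AP1 and AP2 are called adipocytes, but Adipoq stood at 3.06 and 3.99 CPM and Plin1 at 0 and 1.33 CPM there, while Dcn, a gene of fibroblasts, stood at 10563 and 3993 CPM. HS1 to HS4 are called hematopoietic stem cells, but Kit stood between 1.03 and 15.2 CPM, and HS3 had Acan, a cartilage gene, at 745 CPM. They are called by their codes here.

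Gstm1 had the most UMIs of all members in 15 of the 17 aorta subtypes in which any member had at least 20. It stood at 329 CPM (303 to 356) in the smooth muscle subtype VS1 over both libraries, 278 CPM in VS2 and 231 CPM in VS3. It stood at 256 CPM in the macrophage subtype MP1, 255 CPM in AP2 and 103 CPM in the fibroblast subtype FB1. The small subtype HS4 stood above VS1, at 425 CPM on 28 UMIs. That was 129% of the level in VS1, with a wide interval (85.2 to 189). Smooth muscle markers were counted in every subtype, and in MP1 they summed to 50.5% of their level in VS1, where Gstm1 stood at 78.0% of its own (60.9 to 98.8). In AP2 the markers stood at 61.6% and Gstm1 at 77.7% (65.7 to 91.5), and in FB1 at 30.2% and 31.4% (25.8 to 38.1). Of the 15 subtypes other than VS1 with at least 20 UMIs of Gstm1, 7 had an interval above the markers' percentage. Among them were AP1 (64.0% beside 11.1%), BC1 and HS4. In 8 the interval held the markers' percentage, VS2, VS3, FB1 and HS2 included. The part of smooth muscle RNA in these levels was not tested. Gstm2 followed Gstm1 in most subtypes, with 135 CPM in VS1, 129 CPM in AP1 and 110.2 CPM in HS2. In AP1, Gstt1 came second with 184 CPM (162 to 209). Sult5a1, which in liver was highest in cluster 7, had 102 of its 126 aorta UMIs in AP1, at 78.0 CPM.

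The exceptions to the lead of Gstm1 were HS1 and the T cell subtype TC2. Gsto2, an omega-class enzyme that reduces dehydroascorbate, stood at 85.2 CPM (67.8 to 106) in HS1. Sult2b1 stood at 91.4 CPM (65.3 to 125) in TC2, with 128.6 CPM in the library labelled WT and 49.0 CPM in that labelled DKO. In the B cell subtype BC1, Gstp2 was counted in 20 UMIs and Gstm1 in 68, all in the library labelled WT. BC1 held 14 cells labelled DKO and 85 labelled WT, and Gstm1 was at least 4.90-fold lower in those labelled DKO when set against a floor of 3 UMIs.

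**Figure D5:**
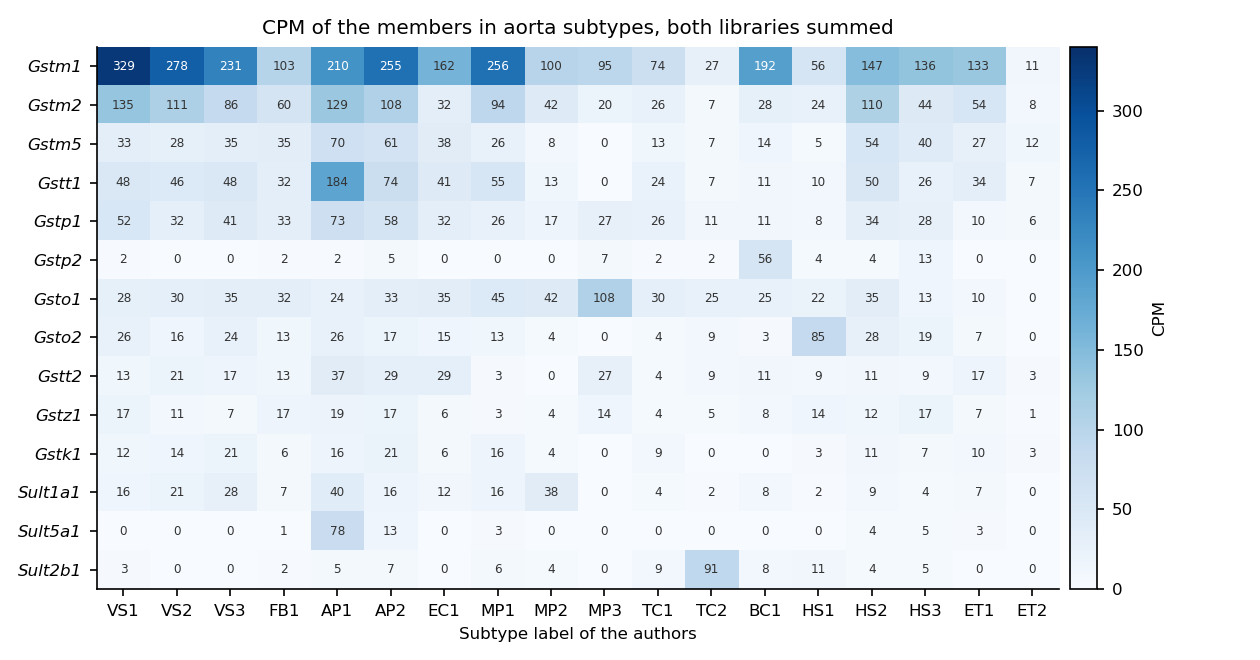
CPM (colour scale and printed values) of the leading members in the authors' aorta subtypes, libraries labelled WT and DKO summed, without the small subtypes HS4, MP4, SC1, TC3 and TC4. Gstm1 is high in the smooth muscle subtypes, Gstt1 and Sult5a1 stand out in AP1, Gsto2 in HS1 and Sult2b1 in TC2.

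The third comparison set the aorta labelled DKO beside the aorta labelled WT. In smooth muscle cells, 1034 labelled DKO and 636 labelled WT, Gst genes summed to 619 and 806 CPM, a ratio of 0.768 (0.7004 to 0.842). Over all aorta cells the ratio was 0.932 (0.886 to 0.980). Of 4 members with enough UMIs in smooth muscle, 1 was lower past the fold (5.98% of all genes) and none was higher (3.16%), and all 4 were below 1. Gstp1 was the lower one, at 33.3 CPM in cells labelled DKO and 67.6 CPM in those labelled WT (0.493, 0.340 to 0.711). Gstm1 stood at 258 and 382 CPM (0.676, 0.589 to 0.777), Gstm2 at 112 and 145 CPM (0.777) and Gstt1 at 44.4 and 52.6 CPM (0.845, 0.588 to 1.22). VS3 held 351 cells of the library labelled DKO and 72 of the other, and Gstm1 had ratios of 0.730 in VS1, 0.529 in VS2 and 1.02 in VS3.

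Over all aorta cells, 13 members had enough UMIs, of which 1 was higher past the fold (5.41% of all genes) and 1 lower (5.79%). The higher was Sult1a1, at 16.7 and 10.5 CPM (1.59, 1.16 to 2.20). The lower was again Gstp1, at 23.4 and 45.7 CPM (0.512, 0.417 to 0.627), and its sum with Gstp2 stood at 157 and 344 UMIs (0.468, 0.385 to 0.567). In the 10 aorta subtypes with at least 10 UMIs of Gstp1 it was lower in the library labelled DKO in all 10, with ratios from 0.1999 to 0.681 and 4 intervals below 1. Gstm1 by contrast was lower in 11 of 19 subtypes and higher in 8, and Gstt1 was higher in 7 of 13, with 1.68 (1.28 to 2.20) in AP1.

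Gstp1 was thus the member counted as lower in the library labelled DKO in both tissues. Its level in hepatocytes labelled WT with ApoE, 66.6 CPM, was close to the 72.2 CPM of the liver without ApoE, and the 29.8 CPM of hepatocytes labelled DKO lay below both. The labels do not say whether the liver and aorta libraries came from the same animals, so the 2 tissues are not counted as independent.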

How the data were processed

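Single-cell RNA-seq was made from 3 mouse livers and 2 aortas, 1 library per group, with a 10x Genomics kit per the labels. The authors deposited raw UMI counts per gene and cell in 3 tables, with metadata per cell. Reads were processed with Cell Ranger 7.1.0 on mm10, per the submitters' processing notes. For cell filters and doublets, the sources used here give no step, and no doublet caller was run. Clusters, cell types and aorta subtypes are those of the deposited metadata, of which 27 columns per table were not used.

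The hepatocyte class was clusters 0 to 8, 13 and 16 of the ApoE liver table and 3, 4, 8 and 12 of the other. Clusters 0 and 2 of the other, with 244 and 111 cells, were left out, although the authors call them hepatocytes too. In that liver, summed erythroid markers stood at 2335 CPM over all cells and 9.99 CPM in the class. Counts of members against all its cells are given in the results. Smooth muscle was VS1, VS2 and VS3. Counts were summed per class and given per 1000000 UMIs, which sum to a fixed total, so that abundant genes lower all others. Intervals are exact 95% Poisson intervals for levels and exact conditional binomial intervals for ratios. They cover counting error only and leave out differences between cells, animals and preparations. A gene at 0 UMIs was set against a floor of 3. The hepatocyte class held 9199909 UMIs labelled DKO, 8789001 labelled WT with ApoE and 900652 of the other WT liver. Smooth muscle held 1621698 UMIs labelled DKO and 1065545 labelled WT. A ratio resting on 100 UMIs has an interval about as wide as that of Ugt1a9 in the first comparison.

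In hepatocytes, the text names the 4 members of each family with most UMIs, all members past a ratio of 1.5 or its inverse with at least 100 UMIs, and their near copies. Between clusters 5 and 7 it names the 6 highest and 6 lowest ratios among members with at least 20 UMIs, and in other cell types up to 3 members with at least 20 UMIs. From each list of related genes it names up to 4 genes whose interval lies furthest from 1. Gsta1, Ugt8a and other members with fewer UMIs that are named for their cell type were chosen after their values were seen. The members and lists were chosen with earlier results of these data known.

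Alternatives changed the weight of cells, the scaling, the denominator, the cells kept, the depth per cell, the clusters, the count minimum and the fold. The ratio, its interval and the fold rule were tested on simulated Poisson counts, the kind of counting error that the intervals assume. The criterion for the intervals' coverage was not met at first and was loosened after that result was seen. The scripts were run with Python 3.11.15, numpy 2.4.6, scipy 1.17.1, pandas 2.3.3 and matplotlib 3.10.9.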

Additional observations from a re-analysis of the deposited data

Results flagged for a closer look

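Some members lay on opposite sides of a ratio of 1 in different places under the same comparison of the library labelled DKO with that labelled WT, each with an interval that leaves out 1. These differences were not tested. Sult2a1 had a ratio of 1.23 in hepatocyte cluster 2 and 0.516 in cluster 1. Sult3a1 had 2.47 in cluster 7 and 0.531 in cluster 4. Ugt1a1 had 2.10 in cluster 7 and 0.554 in cluster 3, and shares its last exons with 8 other members. Ugt3a2 had 1.27 in cluster 8 and 0.780 in cluster 4. Between tissues, Gstt1 had 0.725 in hepatocytes and 1.24 over all aorta cells, and Sult1a1 had 0.891 and 1.59. With 1 library per group, a difference between animals, preparations or the mixture of cells in a cluster cannot be told apart from one of genotype. No group had enough libraries to look for 1 that stands apart.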

How the results depend on the processing

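No paired analysis was possible because each group has 1 library, and the number in every title is the same. In hepatocytes, library labelled DKO over that labelled WT, the Gst, Ugt and Sult sums had ratios of 0.803, 0.720 and 0.802 as means of each cell's CPM. They had 0.831, 0.834 and 0.834 with mitochondrial genes and 6 others left out of the total. They had 0.801, 0.727 and 0.762 with cells thinned to 800 UMIs, which kept 2690 and 3939 cells labelled DKO and WT. In clusters 5, 7 and 8 alone the Ugt sum had 0.955 and the Sult sum 0.922. The count of members past the fold was 0 higher with means of cells, 2 higher and 1 lower in clusters 5, 7 and 8, and 0 higher and 2 lower at a fold of 2. Between the WT livers, 6 members were lower with thinned cells. The smooth muscle Gst ratio was 0.685 with thinned cells and 0.932 over all aorta cells. Of 238 values of named members under these settings, 182 lay within the interval given. A change of side was counted only for members whose interval left out 1, and there were 2. Sult3a1 had 1.34 in clusters 5, 7 and 8, and Ugt2b35 had 1.03 with thinned cells. Ugt1a1, whose interval held 1, also changed side. It was below 1 over the class and above it in clusters 5, 7 and 8. The cause was not tested in any of these. Depth limits the Ugt and Sult genes of the aorta and the 261 hepatocytes of the liver without ApoE.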
